A study of Mus musculus with 2 samples.

Results

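Broad Tcf1 peaks, defined here as the deposited peaks of 1500 bp or more on chromosomes 1 to 19, were examined in naïve CD8+ T cells of mouse spleen. They were chosen by length alone, and they numbered 283 of the 21764 peaks on these chromosomes and of 22286 peaks in all. They made up 1.30% of the peaks and 507931 of the 11267578 bp that the peaks covered (4.51%). Peaks of 400 to 600 bp, the usual length in this list, numbered 6356 and served as the comparison.

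The list was made from 2 ChIP-seq libraries immunoprecipitated with a rabbit antiserum against full-length recombinant Tcf1, 1 from WT cells (36938606 fragments after removal of duplicates) and 1 from Tcf1-deficient cells (27625250 fragments) that served as the control. Both samples were sorted as GFP+ TCRbeta+ CD62Lhi CD44lo-med CD8+ cells. The series' design text names mice with hCD2-Cre and a Rosa26-lsl-GFP reporter, either wild type or double floxed for Tcf1/Lef1, and the genotype label of the control is Tcf1-/-Lef1-/-, whereas its title names Tcf1 deficiency only and the study's methods name Cd4-Cre+Tcf7fl/fl mice. The sources therefore disagree on the Cre driver and on whether Lef1 was present in the control cells, and the group is called Tcf1-deficient here. Age is not given in the labels, and the identity of the cells could not be checked against expression markers with a peak list. With 1 library per group there was no replicate check, so no p-value is given. The intervals below cover counting error only, and peaks are not replicates.

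Tcf1, encoded by Tcf7, is an HMG-box transcription factor that binds the Tcf/Lef motif and, with Lef1, is required for T cell development and for the identity of mature CD8+ T cells. A sequence-specific factor usually gives a narrow ChIP-seq peak centred on its site, while long stretches of signal can lie over extended open regions such as CpG-rich promoters and groups of neighbouring enhancer elements. The peak caller lists 1 summit per peak, the position of the largest coverage, however long the peak is.

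The sequences under the summits of 10 broad peaks are shown because they carry exact copies of the cores of 3 factor families, Tcf/Lef (ATCAAAG), ETS (CGGAAGT) and Runx (TGTGGTT), each searched on both strands. Each window holds the 100 bases on either side of the summit, on the plus strand of mm9 and 5′ to 3′, and capitals mark every copy of the 3 cores or of their reverse complements. The first 6 are the broad peaks of largest fold enrichment with the Tcf/Lef core, leaving out windows that touch an annotated UTR. They lie at chr19:28084384-28084584 (within 1 kb of the start of Rfx3), chr4:102179639-102179839 (intron of Pde4b), chr10:13687339-13687539 (intron of Hivep2), chr12:103890679-103890879 (intron, nearest coding start Itpk1), chr12:74799463-74799663 (intron of Prkch) and chr6:83366259-83366459 (intron, nearest coding start Tet3).
Rfx3: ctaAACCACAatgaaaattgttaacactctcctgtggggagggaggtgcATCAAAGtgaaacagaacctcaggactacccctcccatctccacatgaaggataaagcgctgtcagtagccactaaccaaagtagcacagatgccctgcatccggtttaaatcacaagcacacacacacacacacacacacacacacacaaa
Pde4b: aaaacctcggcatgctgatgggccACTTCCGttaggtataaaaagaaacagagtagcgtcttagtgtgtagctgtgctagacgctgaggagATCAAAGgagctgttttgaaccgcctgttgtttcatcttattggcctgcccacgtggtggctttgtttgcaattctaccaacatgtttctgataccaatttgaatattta
Hivep2: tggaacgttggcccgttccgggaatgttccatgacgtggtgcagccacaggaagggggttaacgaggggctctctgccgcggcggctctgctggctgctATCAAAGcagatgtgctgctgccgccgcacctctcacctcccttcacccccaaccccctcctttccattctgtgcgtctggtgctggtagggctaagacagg
Itpk1: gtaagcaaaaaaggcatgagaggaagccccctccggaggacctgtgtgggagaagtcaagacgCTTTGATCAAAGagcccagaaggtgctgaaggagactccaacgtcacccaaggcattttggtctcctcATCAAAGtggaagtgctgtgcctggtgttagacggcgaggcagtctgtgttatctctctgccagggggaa
Prkch: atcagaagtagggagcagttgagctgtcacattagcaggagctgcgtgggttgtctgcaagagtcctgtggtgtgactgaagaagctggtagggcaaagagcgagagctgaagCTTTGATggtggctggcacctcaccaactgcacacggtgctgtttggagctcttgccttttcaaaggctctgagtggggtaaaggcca
Tet3: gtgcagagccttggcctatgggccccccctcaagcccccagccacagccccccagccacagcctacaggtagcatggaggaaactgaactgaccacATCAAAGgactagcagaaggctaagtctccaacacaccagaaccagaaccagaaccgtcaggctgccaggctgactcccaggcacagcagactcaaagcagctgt

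In the Itpk1 window the core occurred in 3 copies, of which a pair shared bases in a palindrome, and in the Hivep2 and Tet3 windows the middle of the core was 2 and 1 bases from the summit. The Rfx3 window also held a Runx core, and the Pde4b window also an ETS core. The other 4 windows belong to the broad peaks of largest pileup among those left by the same UTR rule, which passed over 5 peaks with higher pileup for the ETS core and 0 for the Runx core. They carried an ETS core, at chr1:166065616-166065816 (intron, nearest coding start Selp) and chr10:90644410-90644610 (intergenic, nearest coding start Tmpo), or a Runx core, at chr12:114665670-114665870 (intergenic, nearest coding start Gm11029) and chr7:132632357-132632557 (intron of Nsmce1).
Selp: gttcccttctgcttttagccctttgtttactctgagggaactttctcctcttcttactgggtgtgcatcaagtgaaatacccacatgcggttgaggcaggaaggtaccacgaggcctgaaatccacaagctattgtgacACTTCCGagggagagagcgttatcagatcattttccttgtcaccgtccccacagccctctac
Tmpo: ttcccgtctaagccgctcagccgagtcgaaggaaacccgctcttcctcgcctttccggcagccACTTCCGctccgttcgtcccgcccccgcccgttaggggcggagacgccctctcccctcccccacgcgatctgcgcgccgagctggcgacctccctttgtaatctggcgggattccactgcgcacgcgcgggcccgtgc
Gm11029: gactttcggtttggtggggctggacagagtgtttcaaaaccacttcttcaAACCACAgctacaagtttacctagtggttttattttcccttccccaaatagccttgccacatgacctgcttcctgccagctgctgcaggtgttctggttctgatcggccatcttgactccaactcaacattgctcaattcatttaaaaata
Nsmce1: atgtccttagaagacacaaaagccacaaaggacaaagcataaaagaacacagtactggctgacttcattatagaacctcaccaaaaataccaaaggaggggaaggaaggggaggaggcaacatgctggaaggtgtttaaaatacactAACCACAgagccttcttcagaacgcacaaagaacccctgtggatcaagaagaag

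Broad peaks had a median length of 1678 bp (interquartile range 1574.5 to 1877.5). Of the 283, 45 reached 2000 bp and 12 reached 2500 bp, and the longest was 5787 bp. Just inside the limit lay peaks nearest to Smad7 (1502 bp), Gpr18 (1506 bp) and Fam83f (1507 bp), with pileups of 162, 103 and 129 WT fragments. Just outside it lay peaks nearest to Creb1 (1499 bp), Ccdc38 (1499 bp) and BC032203 (1498 bp), with pileups of 207, 61 and 54, so the limit cuts through a continuous range of lengths.

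Pileup counts the WT fragments that cover a summit. Its median was 93 (95% interval of the median 87 to 104) in broad peaks and 49 (48 to 49) in peaks of 400 to 600 bp, a ratio of 1.90. The fold enrichment, which is the pileup plus 1 over the control level plus 1, had medians of 14.0 (13.2 to 15.3) and 7.48 (7.32 to 7.63). Pileup and fold enrichment come from the libraries that set the length, so these values describe the peaks and test nothing. Within the broad peaks, length and pileup were almost unrelated (Spearman's rho 0.06 across 283 peaks of the same library pair, as a description), and the median pileup was 95 in the 189 peaks under 1800 bp and 98 in the 45 peaks of 2000 bp or more. The range was wide, with 28 broad peaks under a pileup of 50 and 43 at 200 or more.

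**Figure D1:**
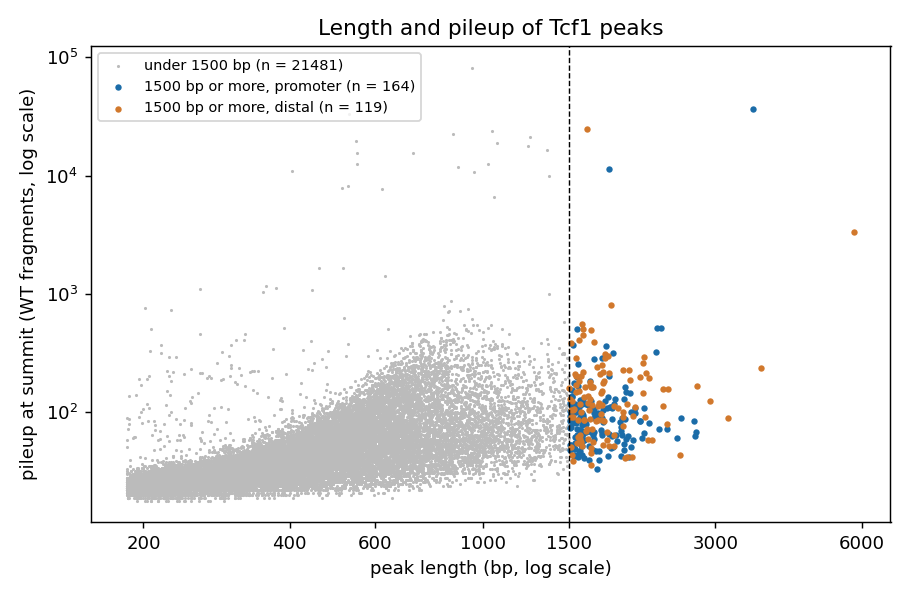
Length (bp, log scale) and pileup at the summit (WT fragments, log scale) of each peak on chromosomes 1 to 19, with the 1500 bp limit dashed; broad peaks are coloured by whether the summit lies within 1 kb of a start site (promoter, 164) or not (distal, 119). Broad peaks span pileups from 33 to 36377, and the 4 highest broad peaks are among the 6 with control levels over 50.

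The control level at the summit, computed back from pileup and fold enrichment, was at its genome-wide floor of 5.42 in 215 broad peaks (76.0%) and in 85.0% of the comparison peaks. It exceeded 50 in 6 broad peaks and in 29 comparison peaks. Of the 283 broad peaks, 278 (98.2%) passed the fold enrichment of 4, p of 1e-05 and q of 0.05 that the study's methods set for high-confidence peaks, beside a background of 86.2% of all peaks on these chromosomes and 94.97% of the comparison peaks. This share is tied to the pileup and says nothing further about broad peaks.

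The 5 broad peaks that did not pass lay in 2 stretches. On chromosome 9, close to its start, the peaks nearest to the predicted genes Gm10722 (3000106 to 3003698), Gm11168 (3006423 to 3008054) and Gm10721 (3011706 to 3013520) had pileups of 36377, 24975 and 11436 in the WT library against control levels of 27064, 19225 and 8064. On chromosome 11, 2 peaks at Sfi1, which encodes a centrin-binding protein, had pileups of 237 (3084679 to 3088393) and 325 (3093083 to 3095342) against control levels of 139 and 233. All 5 had fold enrichments of 1.30 to 1.70, so the WT and Tcf1-deficient libraries were both high there. The longest peak, on chromosome 17 (39979970 to 39985756) and 364 kb from its nearest coding start, that of Pgk2, had 3346 WT fragments over a control level of 585 and passed with a fold enrichment of 5.71. Without these 6 peaks the maximum pileup of the broad peaks was 805 and the median 92.

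The summit lay away from the midpoint in most broad peaks. Expressed as a percent of the peak's length, where 0 is the midpoint and 50 an edge, the offset had a median of 24.4 (22.5 to 25.9) in broad peaks and 7.02 (6.82 to 7.25) in the comparison peaks. The summit was within 10% of the midpoint in 56 broad peaks (19.8%) and in 4018 comparison peaks (63.2%), and more than 25% from it in 132 (46.6%) and 400 (6.29%). In bases, the median offset was 399.5 bp against 34.5 bp. Promoter and distal broad peaks had the same pattern, with median offsets of 24.1 (22.5 to 26.1) and 24.5 (20.1 to 27.8). Over the length range of the list the median offset was 10.4% under 300 bp, 7.02% at 400 to 600 bp, 18.1% at 1000 to 1200 bp, 23.8% at 1500 to 2000 bp and 28.2% above. The list gives no second summit, and whether a broad peak holds several maxima could not be seen in it.

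**Figure D2:**
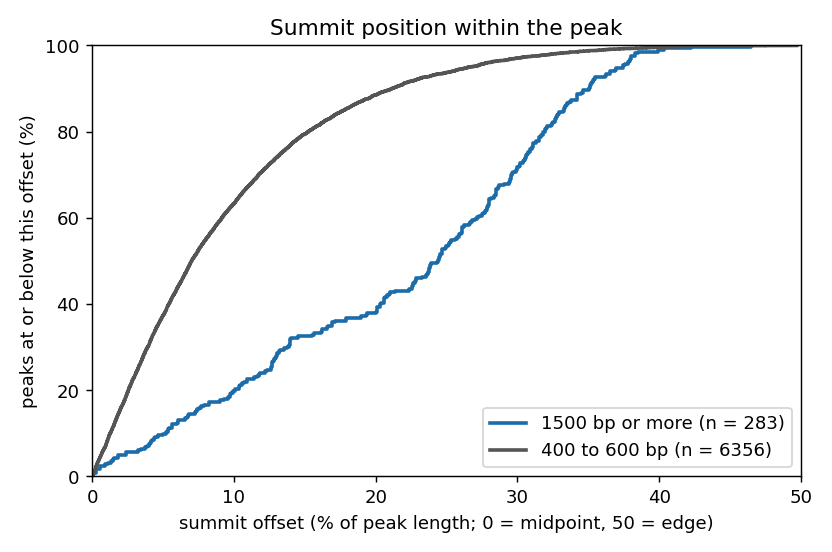
Cumulative share of peaks (percent, vertical axis) with a summit offset at or below the value on the horizontal axis (percent of peak length, 0 at the midpoint and 50 at an edge) for 283 broad peaks and 6356 peaks of 400 to 600 bp. The broad peaks' curve lies below the other, with medians of 24.4 and 7.02.

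Individual peaks showed both arrangements. The second peak at Hivep2, a zinc finger transcription factor, had its summit 0.53% of the length from the midpoint of its 1804 bp, and the core shown above lay at this summit. The 2712 bp peak at the promoter of Ywhaz, which encodes the adaptor protein 14-3-3 zeta, had its summit 38.3% off the midpoint, and the 2176 bp peak at Junb, which encodes a subunit of AP-1, 42.2% off.

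Promoters were more frequent among the broad peaks. The summit was within 1 kb of an annotated transcription start in 164 of 283 broad peaks (58.0%, 95% Wilson interval 52.1 to 63.6) and in 2495 of 6356 comparison peaks (39.3%, 38.1 to 40.5). The difference was 18.7 percentage points (95% Newcombe interval 12.8 to 24.4), and this position was not used to choose the peaks. Of the other broad peaks, 52 summits (18.4%) lay in introns, 4 (1.41%) in exons and 63 (22.3%) between genes, against 30.9%, 2.45% and 27.4% of the comparison peaks. The median distance to the nearest coding start was 779 bp (499 to 1046) for broad peaks and 5181.5 bp (4607 to 5792) for the others.

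Pileup differs between the groups and goes with position, so the shares were also compared within ranges of pileup. At a pileup of 50 to under 100, 84 of 122 broad peaks (68.9%) and 765 of 2650 comparison peaks (28.9%) were at promoters, a difference of 40.0 points (31.1 to 47.7). At 100 to under 200 the shares were 52.2% of 90 and 18.0% of 388, a difference of 34.2 points (23.2 to 44.8). Under 50 they were 71.4% of 28 and 50.2% of 3290, a difference of 21.2 points (2.68 to 34.7). At 200 or more the shares were 30.2% of 43 and 32.1% of 28, a difference of -1.91 points (-23.8 to 18.7), which these numbers of peaks could not resolve. The excess of promoters was thus found in the 3 ranges below a pileup of 200 and was not detectable above. Of the comparison peaks, 29 had control levels over 50, and without these the largest pileup in the group was 225. The range of 200 or more therefore rests in part on comparison peaks that were high in both libraries.

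**Figure D3:**
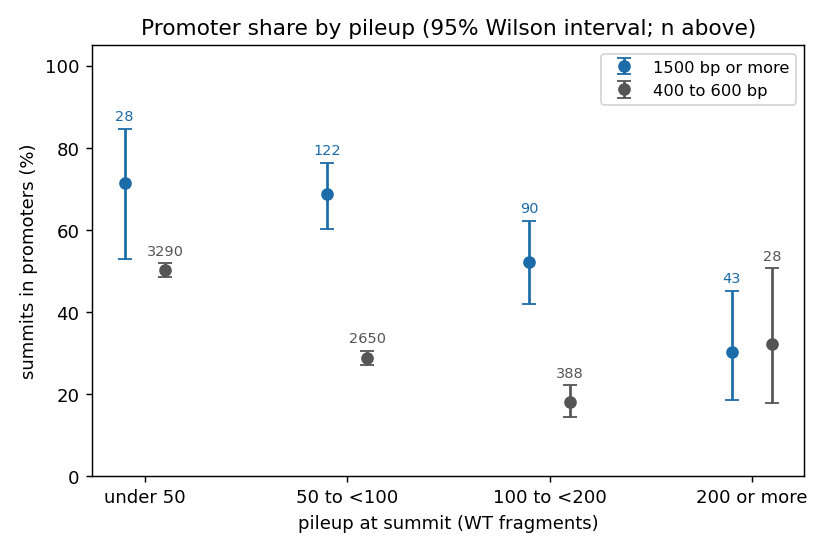
Share of summits within 1 kb of a start site (percent) by range of pileup at the summit (WT fragments) for broad peaks and peaks of 400 to 600 bp; points are shares, bars are 95% Wilson intervals and the number of peaks stands above each bar. The broad peaks' share goes from 71.4% in the lowest range to 30.2% in the highest, and the comparison peaks' share from 50.2% to 32.1% with a minimum of 18.0%. The highest range includes comparison peaks that were high in both libraries.

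Along the whole list, the promoter share was 29.9% (28.6 to 31.2) in 5038 peaks under 300 bp, 44.2% (42.6 to 45.9) at 600 to 800 bp and 54.3% (51.8 to 56.9) at 800 to 1000 bp. It was 56.9% (53.1 to 60.6) at 1000 to 1200 bp, 59.6% (55.1 to 64.1) at 1200 to 1500 bp and 59.7% (53.3 to 65.7) at 1500 to 2000 bp. A share near that of broad peaks was thus present below the limit. In the 45 peaks of 2000 bp or more it was 48.9% (35.0 to 63.0), and its interval overlaps that of every class from 300 bp up.

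A coding start lay within 1 kb of the summit in 158 broad peaks. Their summits had a median position of -57 bp relative to that start (-99 to -26, negative values being upstream), and those of 2356 comparison peaks -33 bp (-39 to -29). The broad peaks reached a median of 840 bp (732 to 952) upstream of the start and 841 bp (778 to 958) downstream of it, while the comparison peaks reached 275 bp (268 to 282) and 213.5 bp (205 to 220). More of the peak lay downstream than upstream in 82 of 158 broad peaks (51.9%) and in 925 of 2356 comparison peaks (39.3%), a difference of 12.6 points (4.64 to 20.5). The upstream and downstream reach of broad peaks was thus about equal, whereas comparison peaks leaned upstream. Coding starts of 2 or more genes lay inside 25 broad peaks (8.83%) and inside 3.51% of the comparison peaks, and starts on both strands inside 23 (8.13%) and 3.29%. A longer peak holds more starts by its length alone, so these shares are given without a comparison.

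**Figure D4:**
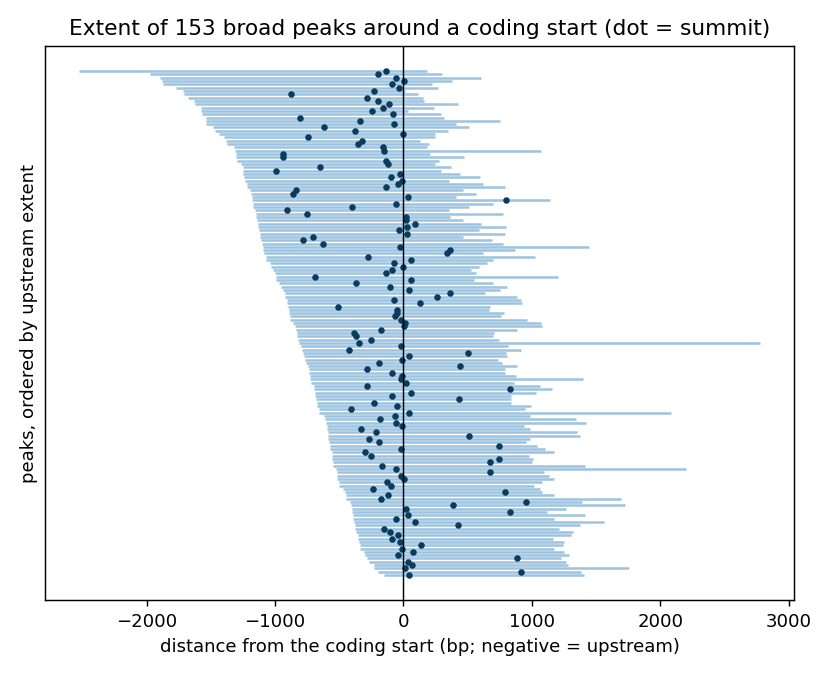
Extent (horizontal lines, bp from the coding start, negative upstream) and summit (dots) of the 153 broad peaks that span the nearest coding start and have their summit within 1 kb of it, ordered by upstream extent. The lines reach to both sides of the start, with medians of 840 bp upstream and 841 bp downstream over all 158 peaks with a coding start within 1 kb, and most summits lie close to 0.

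Broad peaks were rich in CpG dinucleotides, which mark the promoters of widely expressed and developmental genes. The ratio of observed to expected CpG over the peak was above 0.6 in 171 broad peaks (60.4%, 54.6 to 65.9) and in 33.2% of the comparison peaks (32.0 to 34.3), a difference of 27.3 points (21.3 to 32.9). The difference was present in promoter peaks, at 86.6% against 76.4% (10.2 points, 3.92 to 14.9), and in distal peaks, at 24.4% against 5.23% (19.1 points, 12.3 to 27.6). Of the 119 distal broad peaks, 25 overlapped a promoter with their flank. In the 94 that did not, the share was 14.9% against 4.97% (9.92 points, 4.07 to 18.5). By pileup, the CpG difference was 40.4 points (23.1 to 49.2) under 50, 49.95 points (41.2 to 57.4) at 50 to under 100 and 39.4 points (28.7 to 49.9) at 100 to under 200, and at 200 or more it was -4.40 points (-26.5 to 17.3) and not resolved. Higher pileup went with lower GC content of the peak (Spearman's rho -0.36 across 283 broad peaks of 1 library pair, a description), and distal broad peaks had a median pileup of 117 (104 to 147) against 84 (73 to 92) for promoter broad peaks. In the comparison peaks the order was the same, with 54 (53 to 55) against 42 (41 to 42).

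The Tcf/Lef core lay within 100 bp of the summit in 30 broad peaks (10.6%, 7.53 to 14.7), 594 comparison peaks (9.35%) and 9.70% of all peaks, and the same letters read backwards (GAAACTA) in 2.12%, 2.75% and 2.38%. The difference of broad from comparison peaks was 1.26 points (-1.91 to 5.44) and was not resolved. The ETS core was found in 20 broad peaks (7.07%), 6.64% of the comparison peaks and 6.54% of all peaks, a difference of 0.43 points (-2.10 to 4.07), with 2.83%, 3.63% and 3.52% for its reversed letters (TGAAGGC). The Runx core was found in 26 broad peaks (9.19%), 15.7% of the comparison peaks and 14.8% of all peaks, a difference of -6.56 points (-9.55 to -2.53), with 2.83%, 3.10% and 3.005% for its reversed letters (TTGGTGT). Runx proteins, of which Runx3 is a central factor of CD8+ T cells, were thus the family whose core was less frequent at broad summits with all positions and pileups pooled. Below the limit the Runx share was 13.4% at 1000 to 1200 bp and 11.3% at 1200 to 1500 bp, so the lower share was not particular to broad peaks.

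Because promoters and distal sites carry these cores at different rates, the shares were split by position, a comparison chosen after seeing the data. At promoters the Tcf/Lef core was found at 15 of 164 broad summits (9.15%) and 99 of 2495 comparison summits (3.97%), a difference of 5.18 points (1.55 to 10.6), and its reversed letters at 1.83% and 2.08%. At distal sites the shares were 12.6% and 12.8% (-0.22 points, -5.15 to 7.01). The Runx core was found at 3.66% and 5.65% of promoter summits (-1.99 points, -4.19 to 2.18) and at 16.8% and 22.3% of distal summits (-5.47 points, -11.3 to 2.37), so within each position the Runx difference was not resolved. Within ranges of pileup it was larger than over all peaks at 50 to under 100 (5.74% against 19.9%, -14.1 points, -17.5 to -8.33) and at 100 to under 200 (13.3% against 25.8%, -12.4 points, -19.6 to -2.97). It was not resolved under 50 (-7.67 points, -10.8 to 6.50) or at 200 or more (-0.33 points, -19.1 to 15.5). Position was not held constant within these ranges. At 50 to under 100, 68.9% of broad and 28.9% of comparison summits were at promoters, and at 100 to under 200, 52.2% and 18.0%. The parts of pileup and position in the Runx and Tcf/Lef differences were not separated. The ETS core was at 9.15% and 13.4% of promoter summits (-4.28 points, -8.07 to 1.26) and at 4.202% and 2.25% of distal summits (1.95 points, -0.50 to 7.22), where its reversed letters were at 2.52% and 4.196%, so the comparison peaks' ETS share at distal summits was below that of its reversed letters. The Tcf/Lef comparison also differed between ranges of pileup. The core was at 7.14% of 28 against 4.92% of 3290 summits under a pileup of 50 (2.22 points, -3.00 to 17.7), at 8.20% against 13.02% of summits at a pileup of 50 to under 100 (-4.82 points, -8.74 to 1.53), at 7.78% against 21.9% at 100 to under 200 (-14.1 points, -20.0 to -5.78) and at 25.6% of 43 against 7.14% of 28 at 200 or more (18.4 points, -0.37 to 34.0). The last range rests in part on comparison peaks with control levels over 50. Without the 29 such peaks the largest comparison pileup was 225, and 593 of 6327 comparison summits held the core.

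**Figure D5:**
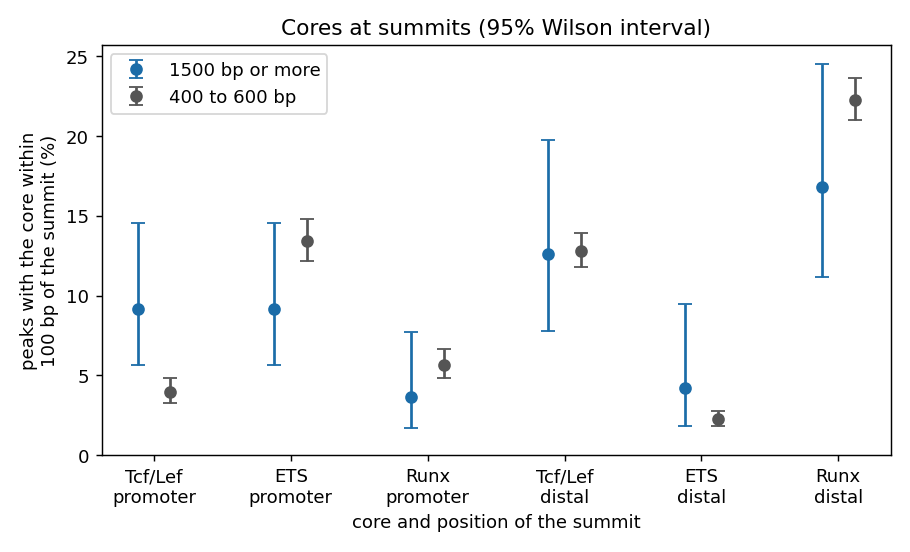
Share of peaks (percent) with the exact core within 100 bp of the summit, for 3 cores and for promoter and distal summits, in broad peaks and peaks of 400 to 600 bp; bars are 95% Wilson intervals. The Tcf/Lef core stands at 9.15% against 3.97% of promoter summits and at 12.6% against 12.8% of distal summits.

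Over its whole length a broad peak more often held at least 1 Tcf/Lef core, in 84 of 283 peaks (29.7%) against 13.5% of the comparison peaks, as its length gives it more sequence to hold one. Per kb of peak the order was the other way, with 0.211 copies (95% Poisson interval 0.173 to 0.255) against 0.300 (0.281 to 0.320). The densities were 0.159 (0.127 to 0.198) and 0.243 (0.226 to 0.261) for the ETS core, and 0.270 (0.226 to 0.319) and 0.527 (0.502 to 0.553) for the Runx core. By position, the Tcf/Lef density was 0.166 (0.123 to 0.220) against 0.133 (0.113 to 0.155) at promoters, where the intervals overlapped and the order was not resolved, and 0.269 (0.205 to 0.347) against 0.409 (0.381 to 0.439) at distal sites. The ETS density was 0.197 (0.150 to 0.256) against 0.487 (0.448 to 0.527) at promoters and 0.110 (0.0702 to 0.163) against 0.0835 (0.0710 to 0.0976) at distal sites, where the order was again not resolved. The Runx density was 0.149 (0.108 to 0.201) against 0.206 (0.181 to 0.233) at promoters, which was not resolved, and lower in broad peaks at distal sites, with 0.429 (0.347 to 0.525) against 0.737 (0.699 to 0.776). Over all positions, the reversed letters had densities of 0.0906 and 0.129 per kb for Tcf/Lef, 0.197 and 0.176 for ETS and 0.112 and 0.140 for Runx, so the ETS core in broad peaks was not above its reversed letters. The reversed Tcf/Lef letters were also lower in broad peaks (intervals 0.0663 to 0.121 and 0.117 to 0.143). The lower pooled Tcf/Lef density was therefore not shown to be particular to the core. At distal sites the reversed ETS letters stood at 0.233 and 0.196 per kb, above the ETS core in both groups.

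The broad peak of largest fold enrichment was an intergenic peak of 1832 bp on chromosome 6, 66.0 kb from the start of Itpr2, which encodes an inositol trisphosphate receptor that releases calcium from the endoplasmic reticulum. Its pileup was 805 and the control level 5.42, giving a fold enrichment of 126, and no Tcf/Lef core lay anywhere in it. The next, of 2318 bp at the promoter of Rfx3, a transcription factor of ciliary genes, had a pileup of 521 against 5.42 (fold enrichment 81.3) and its summit 796 bp into the gene. The peak at the promoter of H2-K1, a classical MHC class I heavy chain, was 2274 bp long (chromosome 17, 34136981 to 34139254), with a pileup of 515 against 7.35 (fold enrichment 61.8) and a summit 199 bp upstream of the start. Of the 10 broad peaks of largest fold enrichment, 7 lay outside promoters. Their WT pileups stood far above the control levels because the peaks were picked by this ratio.

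The other 7 of these 10 comprised intron peaks in Nsmce1 (a subunit of the SMC5/6 complex; pileup 498 against 6.06, fold enrichment 70.7), Map4k4 (a protein kinase; 387 against 5.42, 60.5) and Pde4b (a cAMP phosphodiesterase; 450 against 8.02, 49.98). Intergenic peaks lay 13.3 kb upstream of Ifngr2, the signalling subunit of the interferon gamma receptor (562 against 7.35, 67.4), 21.0 kb upstream of Dhx40, a helicase gene (397 against 5.42, 62.0), and near the predicted gene Gm11029 (508 against 8.02, 56.4). A promoter peak at Zcchc11, which encodes a terminal uridylyltransferase, had 320 against 5.42 (50.01). By pileup, the 10 highest were the 3 peaks at the start of chromosome 9, the longest peak on chromosome 17, Itpr2, Ifngr2, Rfx3, H2-K1, Axin2 and Gm11029. The Axin2 peak, at the promoter of a feedback inhibitor of beta-catenin signalling and known target of Tcf/Lef factors, was 1561 bp long (chromosome 11, 108781352 to 108782912), with 508 WT fragments over a control level of 11.4, a fold enrichment of 41.2 and a core within 100 bp of its summit.

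After the peak near Pgk2, the first Sfi1 peak and the Gm10722 peak, all of high control level, the longest broad peaks were an intron peak of 3181 bp in Rassf8 (pileup 90 against 7.35), an intron peak of 2918 bp in Galnt2, a glycosyltransferase gene (126 against 7.35), a peak of 2752 bp at Arid5a, an AT-rich interaction domain gene (167 against 6.02), and promoter peaks at Jund, a subunit of AP-1 (2739 bp, 68 against 5.42), Zfp36l2 (2729 bp, 63 against 5.42), Ywhaz (2712 bp, 85 against 5.42) and Mnt, a repressor that pairs with Max (2544 bp, 90 against 5.42). None of these 7 reached a pileup of 200, whereas the peak near Pgk2 and the Gm10722 peak were also among the 10 of largest pileup.

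The nearest coding genes numbered 266 for 283 peaks. The T cell transcription factor list held 16 broad peaks at 12 genes (5.65%, 3.51 to 8.99), against 2.38% of the comparison peaks and 2.31% of all peaks, and 10 of the 16 were at promoters. The 12 genes were Bach2, Elf2, Foxp1, Klf13, Klf2, Lef1, Nfatc3, Satb1, Sp3, Tcf7, Zfp36l1 and Zfp36l2. The promoter peak of Tcf7, the gene deleted in the control cells, was 1790 bp long (chromosome 11, 52096522 to 52098311), with 367 WT fragments over a control level of 17.4, a fold enrichment of 20.02 and a core within 100 bp of its summit, which lay 195 bp upstream of the start. The peak nearest to Satb1, which encodes a chromatin organiser of T cells, was intergenic, 46.1 kb away, with a pileup of 251 against 5.42. Zfp36l1 and Zfp36l2, which are on this list but encode proteins that destabilise AU-rich mRNAs, had pileups of 203 at the Zfp36l1 promoter and of 180 at a site 6.25 kb from the start of Zfp36l2. Lef1 had a promoter peak of 1571 bp (pileup 112) and an intron peak of 1636 bp (pileup 73), both against 5.42. Klf2, a factor of T cell quiescence, had a promoter peak of 1597 bp with a pileup of 78. The lists were written with earlier results of these data known, and their counts are descriptions.

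T cell receptor components and signalling genes held 6 broad peaks (2.12%, 0.98 to 4.55) against 1.51% of the comparison peaks and 1.53% of all peaks, and 0 of the 6 were at promoters. They were Itpr2, Prkcq with 2, Cd3d, Cd8b1 and Stim1. Prkcq, the protein kinase C theta that acts below the receptor, had an intron peak with a pileup of 286 against 8.02 and an intergenic peak 12.2 kb upstream with 186 against 5.42. The peak at Cd3d, which encodes the CD3 delta chain, had its summit in an exon, 4.95 kb from the start (219 against 6.69). The median pileup of the 6 was 202.5, beside 117 for distal broad peaks, the class of all 6, and 93 for all broad peaks. This median covers 6 peaks only, assigned by distance, and is a description.

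Homing, adhesion and cytokine receptor genes held 5 broad peaks (1.77%, 0.76 to 4.07), against 1.26% of the comparison peaks and 1.16% of all peaks. Ifngr2 had 2 of them, and Il6st, the shared gp130 receptor chain (57.0 kb away, pileup 152), Selplg, the selectin ligand PSGL-1 (2.38 kb upstream, pileup 151), and S1pr1, the receptor for lymphocyte egress (promoter, pileup 88), had 1 each, all 3 against a control level of 5.42. Effector and inhibitory genes held 2 (0.71% against 0.49% of the comparison peaks and 0.40% of all), an intergenic peak 21.5 kb from Fasl (pileup 165) and a promoter peak at the inhibitory receptor gene Btla (pileup 135).

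Feedback and immediate response genes held 8 broad peaks at 8 genes (2.83%, 1.44 to 5.48; 1.53% of the comparison peaks and 1.44% of all), 6 of them at promoters. After Axin2, the largest pileups were 194 at Tnfaip3 (the ubiquitin-editing inhibitor A20, in an intergenic peak 169 kb away), 93 at Mcl1 (a survival factor) and 89 at Dusp1 (a MAP kinase phosphatase). The other 4 genes were Fosl2, Junb, Jund and Socs1. MHC class I and antigen presentation genes held 1 broad peak, at H2-K1 (0.35%, 0.062 to 1.97; 0.11% of the comparison peaks and 0.15% of all). The Gimap family of lymphocyte GTPases also held 1, at the promoter of Gimap5 (1927 bp, pileup 64), the same share beside 0.047% of the comparison peaks and 0.10% of all. Replication-dependent histone genes held 3 (1.06%, 0.36 to 3.07, against 0.30% of the comparison peaks and 0.24% of all), nearest to Hist1h4h (pileup 58), Hist1h1c (45) and Hist1h2be (42), all with fold enrichments under the broad peaks' median. B cell and myeloid genes held 0 of 283, which allows a share of up to 1.06% by the rule of 3 counts and up to 1.34% by the Wilson interval, 5 of 6356 comparison peaks (0.079%) and 0.064% of all peaks. These counts cover 23 genes of that list, since Spi1, Syk and Adgre1 were not matched by symbol and peaks nearest to them could not be counted for it. Cytosolic ribosomal protein genes, short genes with strong promoters, also held 0 of 283, with the same limits, 45 comparison peaks (0.71%) at 33 genes and 0.56% of all peaks.

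Several genes had more than 1 broad peak. Dhx40 had 3, all upstream of its start at 3.09, 8.22 and 21.0 kb and separated by gaps of 2449 and 10689 bp, with pileups of 85, 101 and 397 against 5.42. Another 15 genes had 2, among them Sfi1, Hfe2, Zfp36l2, Bach2, Prkch, Prkcq, Hivep2, Ing1 and Foxp1. At Hivep2 a promoter peak (1726 bp, pileup 40) and an intron peak (1804 bp, pileup 297) were 332 bp apart, and at Ing1, a chromatin reader of the growth inhibitor family, promoter peaks of 1880 and 1572 bp (pileups 57 and 47) were 220 bp apart. At Bach2, a repressor that restrains effector differentiation, a promoter peak (1961 bp, pileup 60) and an intron peak (2224 bp, pileup 58) were 8893 bp apart. At Prkch, a protein kinase C gene, intron peaks with pileups of 228 and 214 lay 20.04 and 114 kb from the start. The 2 peaks assigned to Foxp1 lay 51.8 and 109 kb from its start, with pileups of 53 and 36, the second within the body of Eif4e3. The 2 peaks assigned to Hfe2 lay 36.0 and 24.7 kb from it, the first at the start of a non-coding transcript (pileups 146 and 44). Nearest genes are assignments by distance, not targets.

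Another summit lay within 10 kb of 180 broad summits (63.6%, 57.9 to 69.0) and of 52.7% (51.5 to 53.9) of the comparison summits. Among broad peaks this share was 78.2% (69.9 to 84.6) at distal sites and 53.0% (45.4 to 60.5) at promoters. The comparison peaks had the same order, with 58.0% (56.5 to 59.6) and 44.4% (42.5 to 46.4). The broad peaks were spread over all 19 chromosomes, from 2 on chromosome 18 (0.34% of its peaks, 0.093 to 1.23) to 31 on chromosome 11 (1.79%, 1.26 to 2.53), with the highest share on chromosome 3 (24 peaks, 2.21%, 1.49 to 3.26).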

How the data were processed

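Tcf1 ChIP-seq was available as 1 peak list of 2 libraries, 1 WT and 1 Tcf1-deficient, grouped by their titles. Per the labels and the study's methods, the authors aligned reads to mm9 with Bowtie2 2.2.5 and called peaks with MACS2, version 2.1.1.20160309 per the file headers, in paired-end mode without broad calling, at a p limit of 1e-05 and keeping 1 fragment per position. The calling settings shape peak length: nearby stretches past the limit are merged into 1 peak. The deposited pileup is a coverage signal in WT fragments, not scaled. The deposited fold enrichment is a ratio to the control level, each plus 1. The deposited −log10 p-values and q-values are Poisson values that compare the 2 libraries, not genotypes. The authors' list gives positions and lengths in bp. The headers give 46428124 and 36118114 fragments before removal of duplicates.

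Peaks were selected on length, and the control level was computed back as (pileup + 1)/fold enrichment − 1. This level is the caller's background value at the depth of the WT library, which kept 1.34 times the control's fragments. It is not a raw fragment count of the Tcf1-deficient library. Starts and gene bodies were taken from the GENCODE vM1 annotation on NCBIM37, which is mm9. Promoters were the 1 kb on each side of any transcript's start, as in the study's methods. Shares have 95% Wilson intervals, differences Newcombe intervals, medians order-statistic intervals and copies per kb exact Poisson intervals. Python 3.11.15, pandas 2.3.3, numpy 2.4.6, scipy 1.17.1 and matplotlib 3.10.9 were used, and annotation and motif search were tested on simulated data. The members, the gene lists and the tests were chosen with earlier results of these data known. Genes were named by rule: the 10 longest peaks, the 10 of largest pileup and of largest fold enrichment, up to 4 of largest pileup per gene list, up to 10 genes with several peaks, and 3 peaks on each side of the length limit. A gene outside this rule is named to complete a count of a list, to illustrate summit position (Hivep2 and Ywhaz fall under the rule, Junb does not), or under a sequence, and was chosen after its values were seen. Windows mostly in repeats were to be left out of the sequences shown, but the genome copy used carries no repeat marks, so that step was not applied. Of the genes in the lists, 5 were not matched in the annotation by symbol. Alternatives covered length limits, the comparison length, promoter width, pileup ranges, the motif window, the high-confidence criteria and the control level.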

Additional observations from a re-analysis of the deposited data

Results flagged for a closer look

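Outside chromosomes 1 to 19, 4 further peaks of 1500 bp or more were on chromosome X, in data that the comparisons above do not use, and all 4 lay between 166411812 and 166446751, close to the end of the chromosome. A peak of 3436 bp at the promoter of Mid1, which encodes a ubiquitin ligase of microtubules, had 120 WT fragments over a control level of 6.43 (fold enrichment 16.3), and a second, of 3099 bp in an intron nearest to Mid1, had 38 over 10.03 (fold enrichment 3.54). The other 2, nearest to the predicted gene Gm17379, had pileups of 700 and 669 against control levels of 403 and 346, with fold enrichments of 1.73 and 1.93. Both libraries were therefore high at the last 2 peaks, and 3 of the 4 fell under the fold enrichment of 4. They are listed as values, with no replicate. In no group were there enough libraries to look for a sample apart from the rest.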

How the results depend on the processing

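Of 84 alternatives over 9 results, 63 kept their direction and, for differences, whether the interval included 0, or moved a count or median within the limits set for it, though the size of a difference could change: among these the promoter difference reached 39.98 points (pileup of 50 to under 100), and at a pileup of 200 or more the Tcf/Lef difference reached 18.44 and the ETS difference 6.977 points. With a limit of 2000 bp there were 45 broad peaks, with a median offset of 28.17%, a promoter share of 48.89%, a median coding distance of 1.095 kb, and differences of 9.635 (promoter), -0.4566 (Tcf/Lef) and -9.082 points (Runx), whose intervals all included 0, so the promoter and Runx differences were no longer resolved. With a limit of 1200 bp there were 734, with a median pileup of 86. The promoter share was 69.61% with promoters of 2.5 kb on each side and 66.78% by any overlap. Within a pileup of 200 or more, the promoter difference was -1.91 and the Runx difference -0.3322 points, both with intervals including 0, while the Runx difference was -14.15 at 50 to under 100 and -12.44 at 100 to under 200. No comparison peak of control level 50 or less had a pileup above 225. All differences at 200 or more thus rest in part on comparison peaks high in both libraries. The Tcf/Lef difference was -4.822 at a pileup of 50 to under 100 and -14.13 at 100 to under 200. The ETS difference was -0.2509 within 50 bp of the summit. In comparisons added after seeing the data, promoter peaks alone gave 5.178 (Tcf/Lef), -4.281 (ETS) and -1.993 (Runx) points and distal peaks alone -0.2155 (Tcf/Lef) and -5.467 (Runx), with intervals including 0 for all but the first. The cause of these changes was not tested. Restricting to high-confidence peaks, leaving out the 6 peaks of high control level or adding chromosome X changed no direction.

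No paired analysis was possible because each group has 1 library. The depth of 1 WT library limits how far a flank is seen above background, and thus the length itself, and the part this plays in the lengths was not tested. A peak length also depends on the calling settings and on the GC content and mappability of the stretch, whose part was not tested either. The control level was at its floor in most broad peaks, so their fold enrichment repeats the pileup.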

Other observations

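A pair of gene families was noticed among the nearest coding genes after the values were seen, so their counts are descriptions. The Hnrnp genes, which encode nuclear RNA-binding proteins of splicing and mRNA export, held 5 broad peaks at 5 genes (1.77% of 283, 0.76 to 4.07), against 8 comparison peaks (0.13%) and 35 of all 21764 peaks (0.16%). These were Hnrnpa1, Hnrnpa2b1, Hnrnpf, Hnrnpl and Hnrnpul1, 4 of them at promoters, with lengths of 1525 to 2383 bp and pileups of 44 to 112. The Zfp36 family of AU-rich mRNA decay factors held 4 broad peaks at 3 genes (1.41%, 0.55 to 3.58), 2 of them at promoters, with pileups of 63 to 203, against 12 comparison peaks (0.19%) and 33 of all peaks (0.15%). Of the 33 peaks nearest to this family, 3 were at promoters.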
